A study of Homo sapiens with 16 samples.

Results

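The change of the transcriptome between normal and oncosphere culture was measured by RNA sequencing in A549 cells labelled ZC3H12A knockout, a pair of libraries per culture and so 4 of the 16 libraries of the study. A549 is an established line of human lung adenocarcinoma. The study set 2 lung cancer lines, A549 and H2023, each as wild type and as ZC3H12A knockout, in 2 cultures, which gives 8 groups of 2 libraries. The libraries were taken by their line, genotype and culture labels, and all 18227 genes of the deposited tables were compared in them, with no filter on low values.

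ZC3H12A encodes Regnase-1, an endonuclease that cleaves stem-loops in the untranslated ends of inflammatory and other mRNAs and so shortens their life. Its own mRNA is among its known targets, and inflammatory signals such as interleukin-1 raise its transcription. Oncosphere (tumour sphere) cultures are non-adherent cultures used to enrich tumour cells with stem-like traits, and cells that leave a flat, adherent culture are known to alter adhesion, the cytoskeleton, proliferation and metabolism.

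The normal cultures were kept for 3 days and the oncospheres, whose label calls the condition enriched for stem cells, for 7 days, so culture type and time in culture cannot be told apart. Both knockout groups come from 1 clone, named in the titles, so nothing here shows how another clone would respond. Wild-type A549 (2 normal, 2 oncosphere libraries, the same days) and H2023 cells labelled ZC3H12A knockout (again 1 clone, 2 and 2 libraries) serve as comparisons. The labels do not say that the libraries of a group came from separate cultures, so the p-values measure the spread between these libraries, which may be technical.

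The 4 libraries are similar in breadth: 13891 and 13969 genes stood at 1 TPM (transcripts per 1000000) or more in normal culture and 14202 and 14149 in the oncospheres. Mitochondrially encoded genes took 13.4% and 18.7% of TPM in the normal cultures and 19.5% and 20.3% in the oncospheres, so the first normal library stands lower than the other 3. With these genes removed and the values rescaled, 3788 genes passed the test in place of 3784. They split into 2290 higher and 1498 lower in the oncospheres, against 1985 and 1799 before. The balance of rises and falls therefore depends on the scaling. The 2 libraries of a group correlated at r = 0.9884 (normal) and 0.9854 (oncosphere) across 14455 genes, on the log2(TPM + 1) scale. Among cell identity markers, the keratins KRT8 and KRT18 were abundant (KRT8 1259 and 765 TPM in normal culture), as were AKR1B10, AKR1C2 and ALDH1A1, enzymes known to be high in A549, and EPCAM lay between 0.37 and 1.03 TPM. Of 8 measured genes of immune, endothelial and fibroblast cells, PECAM1, ITGAM, PDGFRA, PDGFRB, LUM and LYZ stayed at or below 1.5 TPM in every library, CD68 lay between 28.7 and 44.5 TPM, and CD14 rose from 6.88 and 6.61 to 34.3 and 28.97 TPM. By the test described next, PECAM1 was also called higher (0.77) and PDGFRB lower (-0.54), each lost in 3 of 4 fits with 1 library left out. Their summed level was 49.4 and 36.6 TPM in normal culture and 81.1 and 61.4 TPM in oncospheres, and the part of other cells in the results was not tested.

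Of 18227 genes, 3784 (20.8%) differed between the cultures at a limma adjusted p under 0.05. They were 1985 higher in the oncospheres (10.9%) and 1799 lower (9.87%). The median change over all genes was -0.01 on the log2(TPM + 1) scale, and the median size of change among the called genes was 0.85. A rise of at least 1 log2 unit was seen in 871 called genes and a fall of that size in 603; beyond 2 log2 units the rises outnumbered the falls, 206 against 41. With 1 library left out the called genes numbered 2018 (without the first oncosphere library), 2436 (second oncosphere), 2010 (first normal) and 2118 (second normal), and 1474 genes, 830 higher and 644 lower, were called in all 4 of these fits. Each gene written below as having risen or fallen is among those 1474 unless an exception is stated (an adjusted p given as "up to" a value is the largest over these fits), and the lists give how many of their members are. Every list count below is to be read beside the 10.9% of all genes called higher and the 9.87% called lower. Counts in every fit are to be read beside 830 higher and 644 lower of 18227 genes. All log2 changes below are oncosphere minus normal on the log2(TPM + 1) scale, which understates the change of weakly expressed genes; ± gives the standard error from limma, with 2 libraries in each group.

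**Figure D1:**
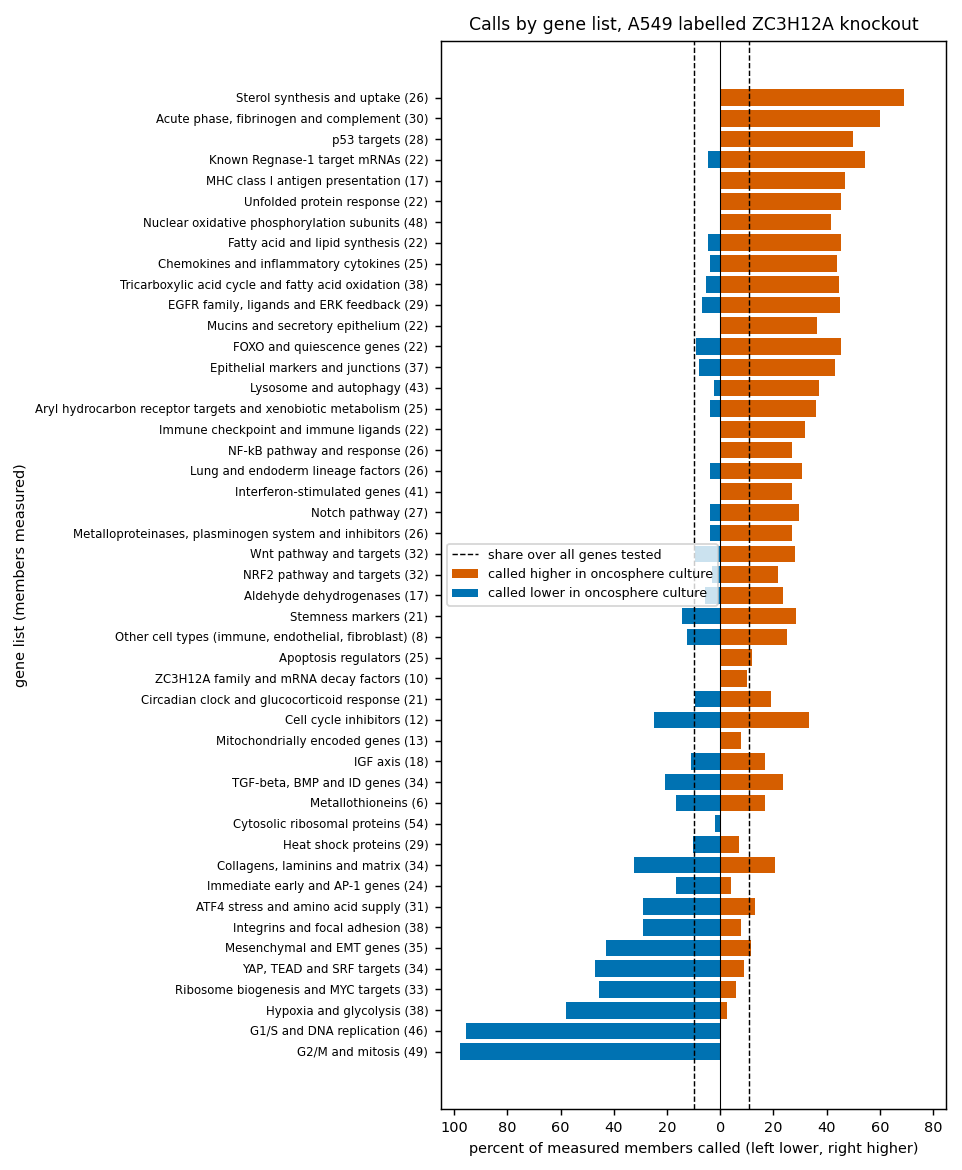
Percent of the measured members of 47 gene lists called higher (orange, to the right) or lower (blue, to the left) in the oncospheres, with the share over all genes tested as dashed lines (10.9% higher, 9.87% lower). Cell cycle lists lie furthest to the left, with 48 of 49 and 44 of 46 members lower, and sterol synthesis lies furthest to the right, with 18 of 26 higher.

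The mRNA of the targeted gene was not lost in the libraries labelled knockout, and it rose in the oncospheres. ZC3H12A (chr1:37474552-37484379, GRCh38, GENCODE 29) was at 16.9 and 19.9 TPM in the normal cultures labelled knockout and at 60.2 and 55.6 TPM in the oncospheres labelled knockout. Both oncosphere libraries lay above both normal ones, a rise of 1.60 ± 0.12 (adjusted p = 0.000259). In wild-type A549 the same mRNA read 30.7 and 34.9 TPM in normal culture and 48.5 and 49.2 TPM in the oncospheres, a rise of 0.56 (adjusted p = 0.00701), so the oncosphere libraries labelled knockout held more ZC3H12A mRNA than those labelled wild type. The rise was larger in the knockout by 1.04 ± 0.17 (adjusted p = 0.0193 for the difference), a call lost without any 1 of the 4 knockout libraries, without the first wild-type normal library and without the first wild-type oncosphere library, with adjusted p up to 0.0656. An edit that disables the protein can leave the mRNA in place, and the edited site was not examined here, so the mRNA level checks nothing about the edit. Below, knockout means the libraries labelled so, and each direction rests on that label. Of the other 9 measured Regnase, Roquin and TTP-type decay factors none passed the test, from ZFP36 at -0.32 to RC3H1 at 0.22.

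Among 22 measured mRNAs known as Regnase-1 targets, 12 rose and 1 fell, beside 10.9% and 9.87% of all genes, with a median of 1.37; 10 of the rises and the fall were called in every fit with 1 library left out. The list held NFKBIZ, an atypical inhibitor of kappa B that activates inflammatory genes, at 4.12 and 5.55 TPM in normal culture and 12.4 and 11.2 TPM in oncospheres, a rise of 1.14 ± 0.20. PTGS2, the inducible cyclooxygenase that starts prostaglandin synthesis, went from 9.41 and 9.15 to 103 and 88.6 TPM (log2 change 3.23 ± 0.19, adjusted p = 0.000156). IL1B, the cytokine interleukin-1 beta, was all but absent in normal culture at 0.26 and 0.12 TPM and reached 8.95 and 7.73 TPM in the oncospheres, a change of 2.97 ± 0.22 (adjusted p = 0.000259). For each of these the libraries of the 2 cultures do not overlap, which holds for 62.6% of all genes. The 1 target that fell was ID2, which blocks basic helix-loop-helix transcription factors, from 170.1 and 153 to 41.1 and 35.1 TPM (-2.06 ± 0.16). IL6, the best known target, changed by 0.33 and did not pass (adjusted p = 0.598).

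Of 25 measured chemokines and inflammatory cytokines 11 rose, 6 of them in every fit with 1 library left out, and 1 fell. This list shares 10 genes with the targets above (CCL2, CCL20, CSF2, CSF3, CXCL1, CXCL2, CXCL3, CXCL8, IL1B and IL6), so the counts of the lists are not independent. CXCL1, a neutrophil attractant, was measured at 17.2 and 9.73 TPM in normal culture and at 392 and 127 TPM in oncospheres, the largest rise of the list at 4.0025 ± 0.47 (adjusted p = 0.00112). In wild type it was at 348 and 427 TPM in normal culture and 560.0 and 441 TPM in oncospheres, so the knockout normal cultures held far less of it and the knockout oncospheres did not exceed the wild-type ones. CXCL8, the neutrophil attractant interleukin-8, went from 9.32 and 5.1 to 170.0 and 41.9 TPM (3.43 ± 0.56) and CXCL5 from 64.98 and 55.2 to 593 and 275 TPM (2.73 ± 0.31). In all 3 the first oncosphere library held more than 2 times the level of the second, and both lay above the normal cultures. CCL2, a monocyte attractant, rose from 25.6 and 14.3 to 105 and 77.2 TPM (2.18 ± 0.28), while in wild type it was at 168 and 163 TPM in normal culture and 105 and 72.8 TPM in the oncospheres; the culture effects differed by 3.09 ± 0.39 (adjusted p = 0.00938; called in all 8 fits with 1 A549 library left out). IL11, a cytokine of the IL-6 family, was the member that was lower, at 106 and 59.8 against 29.6 and 16.3 TPM (adjusted p = 0.0374), a call lost without any 1 of the 4 libraries (up to 0.201). The NF-kappa B list, with its subunits and feedback inhibitors, was thinner: 7 of 26 rose, 1 of them (NFKBIZ) in every fit, and the subunits NFKB1 (-0.22), RELA (-0.21) and REL (0.13) did not pass the test.

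**Figure D2:**
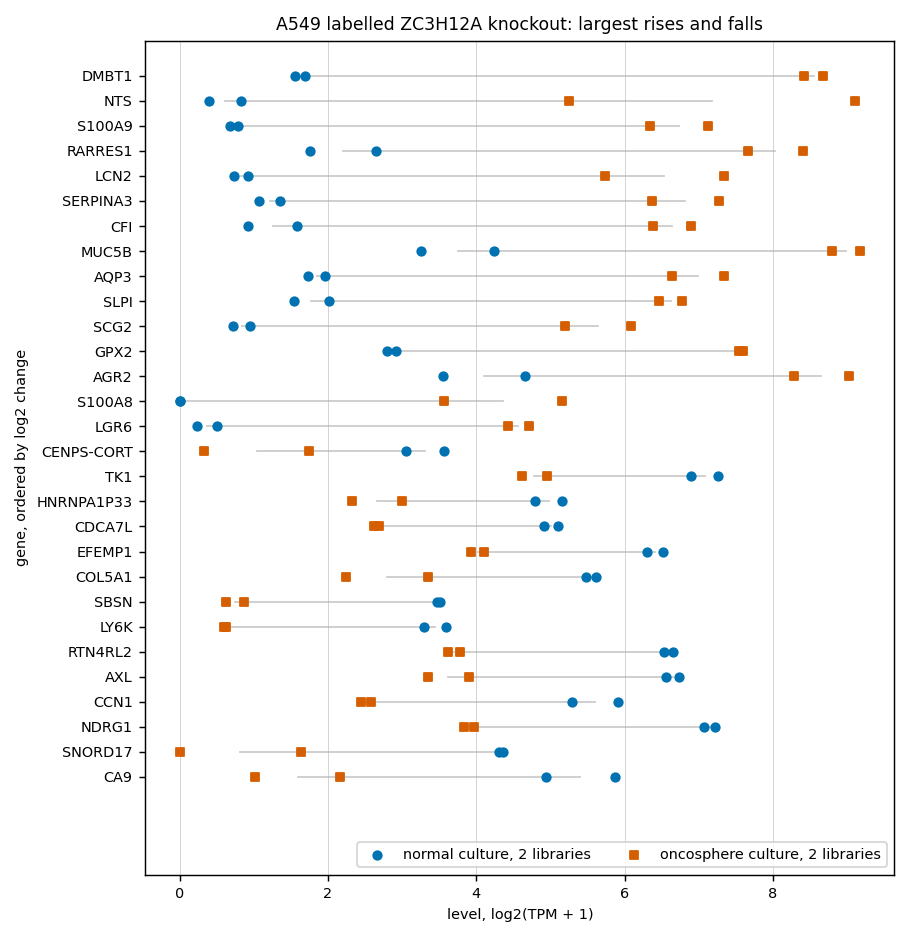
Level in each library, log2(TPM + 1) on the x axis, of the 15 largest rises and 14 of the 15 largest falls among called genes of at least 5 TPM in their higher group (blue circles, normal culture; orange squares, oncosphere; grey lines join the group means). The 2 cultures do not overlap in any of the 29, since the choice required it, and the oncosphere libraries of NTS, at 552 and 37.1 TPM, lie the furthest apart.

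Of the 15 largest rises DMBT1, a scavenger glycoprotein of mucosal linings, had the largest, from 1.94 and 2.22 to 409 and 341 TPM (6.93 ± 0.59, adjusted p = 0.000387). NTS, the peptide neurotensin, followed at 6.57 ± 0.9988, but its oncosphere libraries read 552 and 37.1 TPM, a gap wider than in any other of the 15. S100A9, a calcium-binding alarmin, rose from 0.73 and 0.61 to 138 and 80.0 TPM. Its partner S100A8 was listed at 0 in both normal cultures and at 34.5 and 10.8 TPM in the oncospheres. RARRES1, a retinoic acid-responsive membrane protein, rose by 5.83, AQP3, a channel for water and glycerol, by 5.15, and SCG2, a granin of secretory vesicles, by 4.80 on the log2 scale. GPX2, the epithelial glutathione peroxidase, had the smallest adjusted p of the 15, 5.62e-06, with 5.94 and 6.53 TPM in normal culture and 185 and 193 TPM in oncospheres.

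The 15 largest falls included CA9 and NDRG1, genes of the hypoxia response described below, as are CCN1, AXL and TK1. RTN4RL2, a receptor of the Nogo family, went from 99.5 and 91.7 to 11.3 and 12.7 TPM (-2.90 ± 0.21, adjusted p = 0.000225). EFEMP1, an extracellular matrix fibulin, went from 90.6 and 77.9 to 14.2 and 16.2 TPM (-2.39 ± 0.22), and CDCA7L, a protein of the cell cycle and a partner of MYC, from 29.04 and 33.3 to 5.42 and 5.16 TPM (-2.35 ± 0.13). The pairs of each culture lay close together in these 3. SBSN, suprabasin, fell from 10.4 and 10.1 to 0.54 and 0.82 TPM and changed in wild type by -0.19 (adjusted p = 0.392), a difference of -2.56 ± 0.23 (adjusted p = 0.00325) that did not pass when computed from the authors' deposited table (adjusted p = 0.179). LY6K, a surface protein of testis and tumours, fell from 11.04 and 8.79 to 0.51 and 0.55 TPM. Of the others described here COL5A1 is given below, SNORD17 is a small nucleolar RNA, HNRNPA1P33 a processed pseudogene and CENPS-CORT a read-through of neighbouring genes, whose counts can be shared with other loci and are uncertain; CENPS-CORT also lost its call without either normal library or the first oncosphere library (up to 0.108).

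Airway secretory genes rose as a group only in part. Of 22 measured mucin and secretory genes 8 rose and none fell, 4 of them in every fit, with a median of 0.51. MUC5B, the gel-forming mucin of the airway submucosa, stood at 8.58 and 17.9 TPM in normal culture and at 578 and 443 TPM in oncospheres (5.24 ± 0.43, adjusted p = 0.000332). AGR2, a disulphide isomerase that folds mucins, stood at 10.7 and 24.1 TPM (normal) and 518 and 312 TPM (oncosphere) (4.55 ± 0.35). SLPI, the secretory leukocyte protease inhibitor, stood at 1.92 and 3.03 TPM (normal) and 108 and 87.7 TPM (oncosphere) (4.84 ± 0.30). In these 3 the lowest oncosphere library was more than 10 times the highest normal one. MUC5AC, the goblet cell mucin, reached only 15.7 and 5.33 TPM (adjusted p = 0.018, up to 0.0959 with 1 library left out and lost without either normal library or the first oncosphere library), where wild-type oncospheres held 249 and 378 TPM; the culture effects differed by -3.73 ± 0.58 (adjusted p = 0.0167; called in 5 of 8 fits with 1 A549 library left out). TFF1, a trefoil peptide, stayed at 0.41 and 0.63 TPM in knockout oncospheres against 136 and 105 TPM in wild type, a difference of culture effects of -5.91 ± 0.30 (adjusted p = 0.00077) called in all 8 fits with 1 A549 library left out.

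Acute phase, complement and coagulation proteins, in the body mainly products of the liver, rose more widely: 18 of 30 measured members rose and none fell, 15 in every fit, and the median change was 1.92. Among the acute phase proteins, LCN2, an iron-scavenging lipocalin, went from 0.89 and 0.66 to 160.4 and 52.4 TPM (5.71 ± 0.48) and SERPINA3, antichymotrypsin, from 1.55 and 1.11 to 81.9 and 153 TPM (5.61 ± 0.36). The complement genes included C3, the central component, from 46.1 and 68.8 to 644 and 743 TPM (3.59 ± 0.23, adjusted p = 0.000184), and the serine proteases CFB (3.26), CFI (5.38), C1R (1.53) and C1S (1.68). CD59 (1.74), which protects host cells from complement, rose as well, as did PROS1 (1.65) and TFPI (1.82), which restrain coagulation. The fibrinogen chains were less even: FGA was at 0.17 and 0.2 TPM in normal culture and 7.74 and 6.73 TPM in oncospheres, a call (adjusted p = 0.0232) lost without any 1 of the 4 libraries (up to 0.106), and FGB (2.21) and FGG (2.28) did not pass.

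Falls took in nearly every measured gene of cell division. Of 46 measured genes of G1/S and DNA replication 44 fell and none rose, 34 in every fit, with a median of -1.43; 9.87% of all genes were called lower. Of 49 genes of G2/M and mitosis 48 fell and none rose, 45 in every fit, with a median of -1.74. TK1, the thymidine kinase of S phase, fell furthest in the first list, from 153 and 118 to 23.4 and 30.04 TPM (-2.30 ± 0.16, adjusted p = 0.000202). MCM2, MCM5 and MCM7, subunits of the replicative helicase, fell by 1.91, 1.79 and 1.64, and LIG1, which seals Okazaki fragments, fell by 1.63. PCNA, the sliding clamp, was at 527 and 484 TPM in normal culture and 277 and 398 TPM in oncospheres and did not pass (adjusted p = 0.0957). In mitosis, CDC20, the activator of the anaphase-promoting complex, went from 126 and 127 to 20.7 and 33.7 TPM (-2.22 ± 0.24, adjusted p = 0.000805), and ANLN, a scaffold of the cleavage furrow, from 69.1 and 68.8 to 12.1 and 16.1 TPM (-2.22 ± 0.18). CCNB1, the mitotic cyclin B1, fell by 1.90, AURKB, the kinase of the chromosomal passenger complex, by 1.96, and FOXM1, a transcription factor of G2/M genes, by 2.05. The first oncosphere library was below the second in each of these genes of division. CDC25B, a phosphatase that activates cyclin-dependent kinases, was the 1 mitotic member that did not pass, at 201 and 236 TPM (normal) and 316 and 313 TPM (oncosphere) (adjusted p = 0.0995).

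Since the division genes fell together, their promoters were searched for the letters of known cell cycle elements in the 250 bases before each start (RefSeq, GRCh38.p14, both strands; 12316 genes of the tables had a window). TTTCCCGC, a form of the E2F site, was in 9 of 40 windows of the G1/S list (22.5%) and in 2.15% of all windows, and TTTGGCGC, another form, in 7 of 40 (17.5%) and 0.804%. TTTGAA, the core of the cell cycle genes homology region, was in 21 of 41 G2/M windows (51.2%) and in 8.69% of all. A match describes letters only and was given no test. The windows of 2 replication and 2 mitotic genes that fell are printed below, 5′ to 3′ on the gene's strand and ending just before the start site, with the matched letters, or their reverse complement, in capitals: MCM7 at chr7:100101398-100101647 (minus strand) and LIG1 at chr19:48170345-48170594 (minus strand) with TTTCCCGC, and CDC20 at chr1:43358731-43358980 (plus strand) and ANLN at chr7:36389612-36389861 (plus strand) with TTTGAA.
MCM7: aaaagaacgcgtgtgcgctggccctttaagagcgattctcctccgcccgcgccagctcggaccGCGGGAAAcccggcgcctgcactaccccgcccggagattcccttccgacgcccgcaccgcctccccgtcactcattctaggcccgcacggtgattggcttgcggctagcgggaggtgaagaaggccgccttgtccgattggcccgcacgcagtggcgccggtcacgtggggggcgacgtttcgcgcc
LIG1: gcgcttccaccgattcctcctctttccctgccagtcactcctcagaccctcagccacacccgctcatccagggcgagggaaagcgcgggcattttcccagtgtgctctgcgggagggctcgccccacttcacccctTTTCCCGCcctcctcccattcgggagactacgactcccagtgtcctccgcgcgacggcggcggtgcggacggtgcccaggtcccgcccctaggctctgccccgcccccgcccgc
CDC20: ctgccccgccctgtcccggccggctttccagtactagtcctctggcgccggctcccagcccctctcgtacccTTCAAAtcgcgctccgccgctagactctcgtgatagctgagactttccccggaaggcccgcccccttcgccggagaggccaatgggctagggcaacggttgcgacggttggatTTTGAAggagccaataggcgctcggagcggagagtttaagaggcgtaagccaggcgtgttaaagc
ANLN: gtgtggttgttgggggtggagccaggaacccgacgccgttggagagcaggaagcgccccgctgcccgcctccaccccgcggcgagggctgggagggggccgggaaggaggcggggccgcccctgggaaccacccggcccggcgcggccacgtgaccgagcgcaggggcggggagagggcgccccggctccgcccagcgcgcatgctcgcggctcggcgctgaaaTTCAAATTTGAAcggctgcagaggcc
The E2F letters begin 187 bases before the start in MCM7 and 114 in LIG1. In CDC20 the TTTGAA letters begin 178 and 65 bases before the start, and in ANLN 26 and 20.

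Inhibitors of the cell cycle did not all move 1 way. CDKN1A, the p21 inhibitor of cyclin-dependent kinases, rose from 53.2 and 38.6 to 238 and 229 TPM (2.34 ± 0.27, adjusted p = 0.0011), and BTG2, an antiproliferative p53 target, rose by 1.91. CDKN2C, the p18 inhibitor, fell by 1.01, and GADD45B, a stress sensor, from 66.02 and 58.8 to 9.83 and 15.4 TPM (-2.25 ± 0.26). Of 12 measured inhibitors 4 rose and 3 fell, 2 and 3 in every fit. Among 28 p53 targets 14 rose and none fell, 7 in every fit, with a median of 0.70. Beside CDKN1A these included FAS, the death receptor, at 9.77 and 8.01 TPM in normal culture and 35.4 and 43.01 TPM in oncospheres (2.02 ± 0.27), ZMAT3 (1.36), an RNA-binding protein, and MDM2 (1.02), the ligase that degrades p53. For FAS the wild-type values were 7.18 and 4.84 TPM in normal culture and 10.3 and 5.87 TPM in oncospheres, and the culture effects differed by 1.67 ± 0.38 (adjusted p = 0.0415; called in 1 of 8 fits with 1 A549 library left out). The death effectors of the p53 list, BBC3 (-0.01) and BAX (-0.08), did not pass, and of 25 apoptosis regulators 3 rose, none in every fit.

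Genes of ribosome biogenesis fell in part. Ribosomal protein mRNAs had a small negative change in all 54 measured, but their summed levels overlapped between the cultures. The sums were 129138 and 103412 TPM in normal culture and 104650 and 92669 TPM in oncospheres. With 1 library left out the median change of these genes ran from -0.36 to -0.08. Of 33 genes of ribosome biogenesis and MYC targets 15 fell and 2 rose, with 1 of the rises and 4 falls called in every fit. These falls were the nucleolar proteins NPM1 (-0.93), NOP56 (-0.89) and FBL (-0.86), and the pyrimidine enzyme CAD (-0.82). NAMPT, which makes NAD from nicotinamide, was the rise called in every fit, from 129 and 149 to 662 and 518 TPM (2.07 ± 0.21). Among 54 cytosolic ribosomal protein genes, RPS2 (-0.64, lost without any 1 of 3 libraries, with adjusted p up to 0.154) was the 1 that passed, and the median was -0.19.

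**Figure D3:**
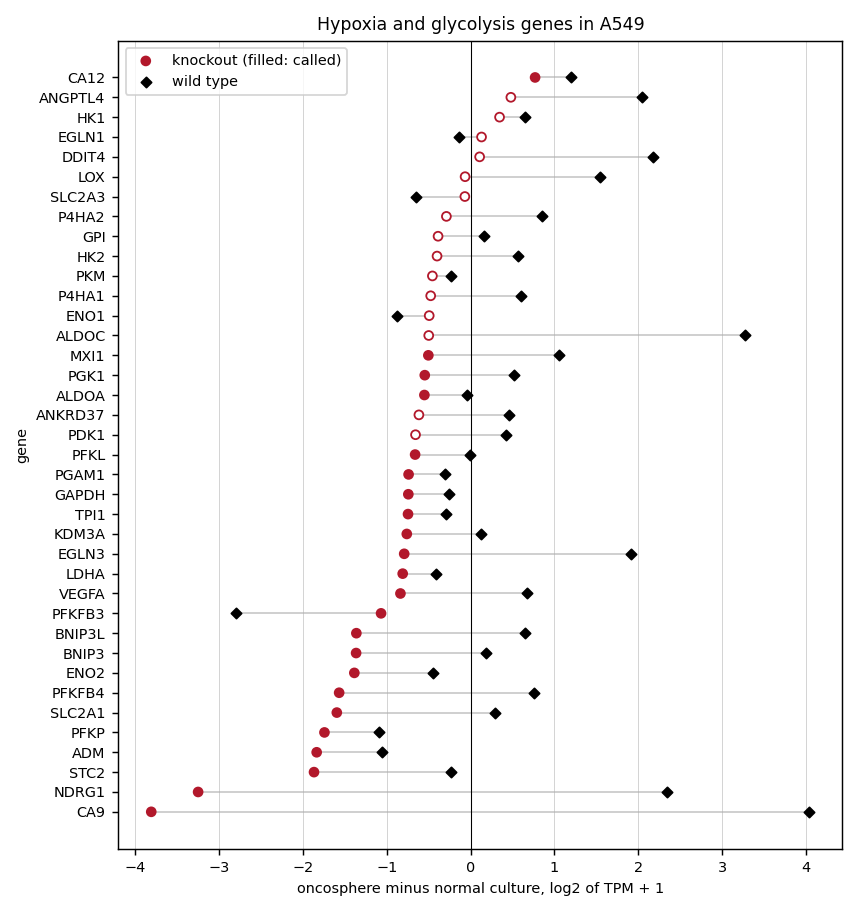
Culture change on the log2(TPM + 1) scale of 38 hypoxia and glycolysis genes in A549 labelled knockout (red circles, filled where called) and in wild type (black diamonds). CA9 and NDRG1 lie at the far left in the knockout (-3.81 and -3.25) and on the right in wild type (4.04 and 2.34).

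Genes of the hypoxia response and glycolysis were lower in knockout oncospheres. Of 38 measured 22 fell and 1 was higher (CA12, 0.77, up to 0.117, lost without the first normal or the first oncosphere library), and 10 falls were called in every fit; the median was -0.66. CA9, a carbonic anhydrase on the cell surface and a standard marker of hypoxia, stood at 29.6 and 57.5 TPM in normal culture and at 3.49 and 1.03 TPM in the oncospheres (-3.81 ± 0.41, adjusted p = 0.000822), the largest fall among called genes of at least 5 TPM in their higher group. NDRG1, a stress-response protein induced by hypoxia, stood at 134 and 148 TPM (normal) and 14.6 and 13.3 TPM (oncosphere) (-3.25 ± 0.33). The normal cultures held more than 8 times the oncosphere level in both genes. ADM, the vasodilator peptide adrenomedullin, fell by 1.84, SLC2A1, the GLUT1 glucose transporter, by 1.60, PFKP, the platelet phosphofructokinase, by 1.74, PFKFB4, a regulator of glycolytic flux, by 1.57, and the mitophagy receptors BNIP3 and BNIP3L by 1.37 and 1.36. The most abundant glycolytic mRNAs changed less: LDHA, lactate dehydrogenase A, was at 3396 and 4301 TPM in normal culture and 2119 and 2242 TPM in oncospheres (-0.81, adjusted p = 0.0247, up to 0.119), and its call and that of GAPDH (-0.74, up to 0.134) were lost without the second normal library or either oncosphere library.

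In wild type more members of the list rose than fell, with 16 higher and 4 lower beside 19.0% and 21.6% of all genes. The other 18 were not called there, and the median was 0.36. CA9 there rose from 3.11 and 4.87 to 82.9 and 76.98 TPM and NDRG1 from 18.7 and 27.5 to 79.5 and 178 TPM. In both genes the normal cultures labelled knockout already stood above the wild-type normal cultures. The difference of culture effects, knockout minus wild type, was -7.85 ± 0.58 for CA9 (adjusted p = 0.00279) and -5.59 ± 0.47 for NDRG1 (adjusted p = 0.00291), each called in all 8 fits with 1 A549 library left out. Over the list the difference was called lower in 15 genes and higher in 1 (PFKFB3, 1.73, called in 3 of 8 such fits), beside 3.13% lower and 3.52% higher over all genes; 3 of the 15 were called in all 8 fits.

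ACGTG, the core letters of the hypoxia response element, was in 16 of 34 promoter windows of the list (47.1%) and in 22.8% of all windows. Windows of 2 members that fell, CA9 at chr9:35673678-35673927 (plus strand) and BNIP3 at chr10:131981924-131982173 (minus strand), are printed with these letters or their reverse complement in capitals.
CA9: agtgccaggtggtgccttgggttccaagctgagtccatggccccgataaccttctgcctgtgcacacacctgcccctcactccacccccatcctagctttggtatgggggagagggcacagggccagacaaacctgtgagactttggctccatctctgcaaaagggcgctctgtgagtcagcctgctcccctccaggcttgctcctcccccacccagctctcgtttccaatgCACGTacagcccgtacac
BNIP3: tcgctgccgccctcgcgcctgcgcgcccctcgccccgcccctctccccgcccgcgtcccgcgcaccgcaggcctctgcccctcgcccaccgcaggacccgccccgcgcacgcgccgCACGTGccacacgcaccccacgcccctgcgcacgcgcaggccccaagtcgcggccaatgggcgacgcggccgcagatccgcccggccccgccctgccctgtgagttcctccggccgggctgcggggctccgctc
In CA9 the letters begin 18 bases before the start. In BNIP3 the 2 strands match in overlap, 134 and 133 bases before the start.

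**Figure D4:**
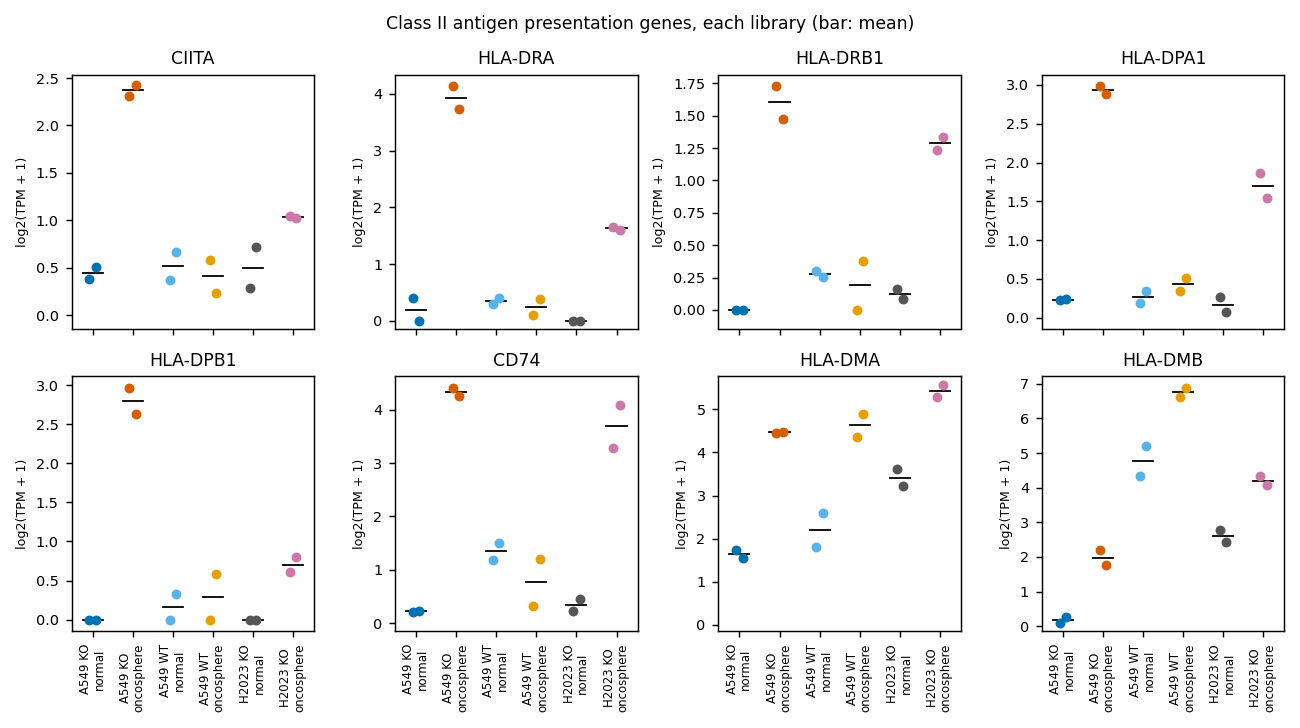
Level of 8 genes of class II antigen presentation in each library of 6 groups, log2(TPM + 1), with the group mean as a bar; the y axes differ. CIITA, the DR and DP chains and CD74 are higher in knockout oncospheres of A549 than in knockout normal culture, and stay near 0 to 1.5 in A549 wild type. In knockout oncospheres of H2023, CD74 and, by less, HLA-DRA and HLA-DPA1 lie above that range. CIITA, HLA-DRB1 and HLA-DPB1 stay within it there, though each was called higher than in H2023 knockout normal culture. HLA-DMA and HLA-DMB rise in A549 wild type too.

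Class II antigen presentation, which loads peptides on HLA molecules for CD4 T cells and is switched on by the coactivator CIITA, appeared in the knockout oncospheres. CD74, the invariant chain that chaperones class II molecules, was found at 0.16 and 0.18 TPM in normal culture and 20.3 and 17.99 TPM in the oncospheres (4.10 ± 0.29, adjusted p = 0.000225), and HLA-DRA, the DR alpha chain, at 0.32 and 0 TPM (normal) and 16.6 and 12.2 TPM (oncosphere) (3.73 ± 0.22, adjusted p = 0.000146). The rest of this group was looked up after those 2 had been seen, so it has no list count. HLA-DRB1 and HLA-DPB1, beta chains of DR and DP, were listed at 0 in both normal cultures; in the oncospheres HLA-DRB1 was at 2.32 and 1.78 TPM and HLA-DPB1 at 6.79 and 5.21 TPM. HLA-DPA1 went from 0.17 and 0.18 to 6.93 and 6.4 TPM, CIITA from 0.3 and 0.42 to 3.96 and 4.38 TPM, and the peptide exchange factor HLA-DMA from 2.32 and 1.93 to 20.96 and 21.3 TPM. Its partner HLA-DMB went from 0.07 and 0.19 to 3.59 and 2.39 TPM. All 8 had both oncosphere libraries above both normal ones. Cultures that do not overlap, in either direction, were seen in 62.6% of all genes. Of the DNA-binding partners of CIITA, RFX5 changed by 0.47 (adjusted p = 0.0171, up to 0.104, lost without the first normal library or either oncosphere library), and RFXANK (0.29) and RFXAP (-0.33) did not pass. Reads of HLA genes can be shared between near-identical copies, so the single DR and DP values are uncertain.

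In wild type CD74, HLA-DRA and CIITA stayed below 2 TPM. CD74 stood there at 1.27 and 1.85 TPM in normal culture and 0.26 and 1.3 TPM in oncospheres, HLA-DRA at 0.23 and 0.32 TPM (normal) and 0.07 and 0.3 TPM (oncosphere), and CIITA at 0.29 and 0.59 TPM (normal) and 0.5 and 0.18 TPM (oncosphere). The culture effects differed by 4.68 ± 0.40 for CD74 (adjusted p = 0.00293), 3.84 ± 0.31 for HLA-DRA (adjusted p = 0.00291) and 2.03 ± 0.26 for CIITA (adjusted p = 0.00938), each in all 8 fits with 1 A549 library left out. HLA-DMA and HLA-DMB rose in wild type as well, HLA-DMA from 2.48 and 5.04 to 19.6 and 28.7 TPM and HLA-DMB from 19.1 and 35.7 to 98.2 and 116.2 TPM, above the knockout oncospheres, and their culture effects did not pass as different (0.40 and -0.19). H2023 oncospheres labelled knockout held 8.78 and 16.1 TPM of CD74 and 2.14 and 2.05 TPM of HLA-DRA. Their normal cultures held 0.18 and 0.37 TPM of CD74, and HLA-DRA was listed at 0 in both libraries. CIITA (0.54), HLA-DRB1 (1.17), HLA-DPA1 (1.53) and HLA-DPB1 (0.70) were also called higher in these H2023 oncospheres, at 2.63 TPM or less. HLA-DMA (2.01) and HLA-DMB (1.60) were called higher there as well. Wild-type H2023 was not compared here, so these values do not tie the rise to the genotype in that line. Of immune cell markers, CD14 rose with these genes (above), ITGAM stayed at or below 1.5 TPM, and PTPRC and CD3E were not analysed here.

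TGATTGG, the core letters of the class II Y box, was in 2 of the 6 class II windows at hand and in 8.46% of all windows. Both are printed with those letters in capitals: HLA-DRB1 at chr6:32589849-32590098 (minus strand), where they begin 48 bases before the start, and HLA-DMA at chr6:32953098-32953347 (minus strand), where they begin 81 bases before it.
HLA-DRB1: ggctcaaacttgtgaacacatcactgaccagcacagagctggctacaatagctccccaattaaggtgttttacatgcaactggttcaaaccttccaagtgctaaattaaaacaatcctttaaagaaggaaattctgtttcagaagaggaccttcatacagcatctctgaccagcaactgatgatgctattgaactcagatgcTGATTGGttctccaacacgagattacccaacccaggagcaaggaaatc
HLA-DMA: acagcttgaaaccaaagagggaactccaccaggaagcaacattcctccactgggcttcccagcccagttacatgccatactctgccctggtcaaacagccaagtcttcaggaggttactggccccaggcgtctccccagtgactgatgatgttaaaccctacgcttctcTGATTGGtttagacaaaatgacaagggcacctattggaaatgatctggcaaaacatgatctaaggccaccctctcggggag

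Class I presentation rose less evenly. Of 17 measured genes 8 rose and none fell, with 1 of them called in every fit. B2M, the light chain of class I, read 668 and 639 TPM (normal) and 1719 and 1639.8 TPM (oncosphere) (1.36 ± 0.26, adjusted p = 0.0089), and lost its call without the second normal or the first oncosphere library (up to 0.0537). Interferon-stimulated genes, the antiviral programme of type I interferon, showed a weak and uneven change: 11 of 41 rose, 1 of them in every fit, and the median was 0.66. That gene was OAS1, a sensor of double-stranded RNA, at 21.97 and 11.9 TPM in normal culture and 89.6 and 65.8 TPM in oncospheres (2.17 ± 0.27). IFI6 was at 18.5 and 12.1 TPM (normal) and 127 and 36.2 TPM (oncosphere) (adjusted p = 0.0485, up to 0.242, lost without either normal library or the first oncosphere library), and ISG15, a ubiquitin-like modifier, at 14.6 and 8.12 TPM (normal) and 47.04 and 14.6 TPM (oncosphere) did not pass. In IFI6 and ISG15 the first oncosphere library held about 3 times the second. In wild type 39 of the 41 rose, beside 19.0% of all genes, with a median of 2.77. The difference of culture effects was called lower in 20 of the 41, beside 3.13% of all genes. Each of these 20 calls held in between 1 and 4 of the 8 fits with 1 A549 library left out. IFI6 in wild type reached 2126 and 792 TPM and ISG15 843 and 261 TPM.

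Many genes of the actin cytoskeleton and of cell tension fell. Of 34 measured targets of YAP, TEAD and SRF, factors that respond to cell tension and contact, 16 fell and 3 rose, 9 and 2 in every fit, with a median of -0.65. CCN1, a matricellular protein and standard YAP target, was at 59.4 and 38.2 TPM in normal culture and 4.96 and 4.46 TPM in oncospheres (-3.09 ± 0.25, adjusted p = 0.000343). AXL, a receptor tyrosine kinase, was at 106 and 93.02 TPM (normal) and 13.9 and 9.22 TPM (oncosphere) (-3.02 ± 0.29). AMOTL2 and AJUBA, both YAP regulators and targets, fell by 2.08 and 1.81, and of the actin genes TPM1 (a tropomyosin) fell by 1.71, FLNA (filamin A) by 1.30 and ACTB (beta-actin) by 1.08. YAP1 (-0.35) and CCN2 (-0.93) did not pass, and WWTR1, which encodes the YAP partner TAZ, rose by 0.76. CATTCC, the core letters of the TEAD site, was in 7 of 26 promoter windows of the list (26.9%) and in 9.49% of all windows. Among 38 integrin and focal adhesion genes 11 fell and 3 rose, 5 and 1 in every fit, beside 9.87% lower and 10.9% higher of all genes. The rises were thus no more frequent than over all genes. CAV1 and CAVIN1, which form caveolae, fell by 1.77 and 1.10 and TLN1 (talin) by 0.75. ITGA6, a laminin-binding integrin chain, rose from 17.4 and 13.1 to 75.8 and 49.02 TPM (1.95 ± 0.28).

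Mesenchymal genes did not move as 1 block. Of 35 measured 15 fell and 4 rose, 8 and 2 in every fit, beside 9.87% lower and 10.9% higher of all genes. The rises were thus close to the share over all genes. VIM, the filament protein vimentin, fell by 1.21, SNAI2, a repressor of epithelial genes, by 1.94, TGFBI, a TGF-beta-induced matrix protein, by 1.68, and COL5A1, a fibrillar collagen chain, from 48.0 and 43.5 to 9.2 and 3.75 TPM (-2.75 ± 0.33). Against them FN1, fibronectin, rose from 122 and 99.8 to 947 and 700.0 TPM (2.87 ± 0.19, adjusted p = 0.000189) and SPARC, a matrix glycoprotein, from 1.49 and 4.76 to 24.1 and 17.99 TPM (2.53 ± 0.42). ZEB1 (-0.16) and TWIST1 (-0.21), other inducers of mesenchymal state, did not pass. Basement membrane chains went both ways, COL4A1 falling by 0.93 and COL4A5 and COL4A6 rising by 1.71 and 1.63. MMP7, the epithelial protease matrilysin, rose from 2.81 and 1.39 to 20.8 and 22.1 TPM (2.89 ± 0.22), and PLAUR, the urokinase receptor, by 1.64.

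Epithelial junction genes were higher: 16 of 37 rose and 3 fell, 12 and 1 in every fit. CDH1, E-cadherin, was at 20.6 and 17.7 TPM in normal culture and 84.5 and 79.02 TPM in oncospheres (2.04 ± 0.19, adjusted p = 0.000467). CLDN2, a pore-forming claudin of tight junctions, was at 13.2 and 12.5 TPM (normal) and 176 and 198 TPM (oncosphere) (3.76 ± 0.18). JUP, plakoglobin of adherens junctions and desmosomes, was at 26.8 and 16.4 TPM (normal) and 192 and 174 TPM (oncosphere) (3.06 ± 0.36). None of the 3 overlapped between the cultures, which holds for 62.6% of all genes. TJP3, a tight junction scaffold, rose by 3.35, F11R, the junctional adhesion molecule A, by 1.99, and the epithelial transcription factors ELF3 and EHF by 1.94 and 3.67. KRT8 and KRT18, a keratin pair that forms filaments together, rose by 1.61 and 1.68, while KRT7 read 2486 and 1121 TPM in normal culture and 664 and 630.2 TPM in oncospheres (-1.37, adjusted p = 0.027, up to 0.107, lost without the first normal or either oncosphere library). In normal culture the first library held more KRT7, KRT8 and KRT18 than the second, and KRT7 alone of the 3 was lower in the oncospheres.

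Most measured genes of cholesterol synthesis rose. Of 26 measured genes of sterol synthesis and uptake 18 rose and none fell, 12 in every fit, with a median of 1.19. HMGCS1, which makes HMG-CoA at the head of the pathway, was at 26.1 and 31.2 TPM in normal culture and 149 and 110.3 TPM in oncospheres (2.13 ± 0.27). MSMO1, a methyl oxidase of the later steps, was at 24.4 and 20.2 TPM (normal) and 137 and 87.1 TPM (oncosphere) (2.25 ± 0.30, adjusted p = 0.00198). TM7SF2, a sterol reductase, was at 8.73 and 5.03 TPM (normal) and 73.0 and 47.6 TPM (oncosphere) (2.97 ± 0.33). The cultures did not overlap in these 3, as in 62.6% of all genes. FDFT1, which makes squalene, rose by 1.34, and STARD4, which carries sterols between membranes, by 1.61. TCACNCCAC (N is any base), the letters of the sterol regulatory element, was in only 1 of 19 promoter windows of the list (5.26%) and in 0.796% of all windows. In H2023 labelled knockout 23 of the 26 rose and 1 fell, beside 7.68% and 19.2% of all genes, and the A549 rise was smaller in 18 by the test of the difference (1.68% of all genes); for HMGCS1 the difference was -2.10 (adjusted p = 0.0036). Fatty acid genes rose less, 10 of 22 with 1 fall, 6 and 1 in every fit: FADS2, a desaturase, by 1.64, ACSL1, which activates long fatty acids, by 1.93, and ACSS2, which activates acetate, by 1.67, while FASN (0.57) and SCD (1.30, adjusted p = 0.0503) did not pass and PLIN2, a lipid droplet coat protein, fell by 0.97.

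Respiration and fuel use shifted modestly, apart from a few genes. PDK4, a kinase that shuts pyruvate dehydrogenase and favours fat oxidation, rose from 11.5 and 8.57 to 209 and 122 TPM (3.88 ± 0.38, adjusted p = 0.000563), and PPARGC1A, the coactivator of mitochondrial biogenesis, from 3.03 and 4.54 to 16.7 and 15.98 TPM (1.87 ± 0.26). Of 38 genes of the tricarboxylic acid cycle and fatty acid oxidation 17 rose and 2 fell, 10 and 0 in every fit; IDH1, the cytosolic isocitrate dehydrogenase, rose by 1.22 and ACADS, the short-chain acyl-CoA dehydrogenase, by 1.37. Of 48 nuclear genes for subunits of oxidative phosphorylation 20 rose and none fell, but 4 in every fit (NDUFB5 0.73, COX7C 0.69, ATP5MC3 0.66, COX7B 0.62), with a median of 0.33. Of 13 mitochondrially encoded genes 1 passed, though not in every fit, with a median of 0.42, beside the shares of mitochondrial TPM given above.

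Lysosomal genes and the secretory pathway rose in part. Of 43 lysosome and autophagy genes 16 rose and 1 fell, 7 and 1 in every fit. The proteases led: CTSC, cathepsin C, which activates serine proteases of immune cells, was at 131 and 109 TPM in normal culture and 694 and 629 TPM in oncospheres (2.46 ± 0.16), CTSS, which trims the invariant chain of class II, rose by 2.17 and CTSD, the main aspartic protease, by 1.76. PSAP, the precursor of the saposins, rose by 1.49 and LIPA, the acid lipase, by 1.47, and NPC1, which exports cholesterol from lysosomes, fell by 0.96. Of 22 genes of the unfolded protein response 10 rose and none fell, 5 in every fit. XBP1, the transcription factor of that response, was at 45.98 and 42.3 TPM (normal) and 176 and 122 TPM (oncosphere) (1.71 ± 0.18), and DNAJB9, an ER co-chaperone, rose by 1.97, while the abundant chaperone HSPA5 (BiP) changed by 0.43 and did not pass (adjusted p = 0.0734). Amino acid supply genes that ATF4 controls went the other way, 9 of 31 lower and 4 higher, 2 and 0 in every fit. SLC7A5, the large neutral amino acid transporter, fell from 480.1 and 562 to 143 and 134 TPM (-1.90 ± 0.13, adjusted p = 0.000225) and its partner SLC3A2 by 1.02.

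The oncosphere label speaks of stem cell enrichment, and the markers used for stem-like lung cancer cells were mixed. Of 21 measured 6 rose and 3 fell, 5 and 1 in every fit, with a median of 0.17. LGR5, an R-spondin receptor of epithelial stem cells, stood at 0.15 and 0.12 TPM in normal culture and 3.13 and 3.33 TPM in oncospheres (1.90 ± 0.18), low in both. CD44, a hyaluronan receptor, stood at 416 and 398 TPM (normal) and 708 and 696 TPM (oncosphere) (0.78 ± 0.12) and SOX9, a progenitor factor of the lung, at 6.53 and 5.16 TPM (normal) and 23.4 and 17.96 TPM (oncosphere) (1.66 ± 0.22). The 2 cultures did not overlap in any of the 3, nor in 62.6% of all genes. Of the aldehyde dehydrogenases, ALDH3A1 rose by 1.11, and ALDH1A1, the most abundant, was at 3126 and 2746 TPM (normal) and 4046 and 3931 TPM (oncosphere) and did not pass (adjusted p = 0.0903). TERT, the telomerase enzyme, fell from 3.04 and 2.51 to 0.72 and 0.33 TPM (-1.32 ± 0.22). BMI1 (-0.32), ABCG2 (0.16), KLF4 (0.40) and POU5F1 (0.17) did not pass, and PROM1 and NANOG were not analysed here.

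Of 32 genes of the Wnt pathway 9 rose and 3 fell, 7 and 1 in every fit: LGR6, an R-spondin receptor, from 0.42 and 0.18 to 25.2 and 20.5 TPM (4.19 ± 0.27), RNF43 (2.38) and ZNRF3 (1.71), ligases that remove Wnt receptors, NKD1 (1.55), an inhibitor of Dishevelled, and SFRP5 (3.22), a secreted Wnt antagonist, while NKD2 fell by 2.13. AXIN2, the most used Wnt target, read 4.36 and 7.07 TPM (normal) and 12.4 and 17.1 TPM (oncosphere) (1.24, adjusted p = 0.00866, up to 0.0574, lost without the first normal or the second oncosphere library). For NKD1 the wild type fell, from 3.74 and 3.64 to 1.65 and 1.86 TPM, and the culture effects differed by 2.32 ± 0.25 (adjusted p = 0.00556). In the EGFR and ERK list 13 of 29 rose and 2 fell, 5 and 0 in every fit. DUSP6, the phosphatase that switches ERK off, went from 3.56 and 3.03 to 40.1 and 29.9 TPM (3.05 ± 0.17, adjusted p = 0.000134), and SPRY1 and LRIG1, brakes on receptor signalling, rose by 2.64 and 1.97. EGFR itself was at 51.1 and 43.4 TPM (normal) and 26.7 and 24.4 TPM (oncosphere) (-0.86, adjusted p = 0.00823, 0.0632 without the first normal library). The other call of a lower level was ERRFI1, a feedback inhibitor of EGFR, at 29.95 and 27.95 TPM in normal culture and 20.3 and 7.77 TPM in oncospheres (adjusted p = 0.0488), lost without either normal library or the second oncosphere library (up to 0.179), and DUSP1 (0.07), a MAP kinase phosphatase, did not pass. In the Notch list 8 of 27 rose and 1 fell, 5 and 0 in every fit, with the ligand JAG1 up by 1.26 and the target repressors HEY1 and HES1 by 2.21 and 1.24. In the TGF-beta, BMP and ID list 8 of 34 rose and 7 fell, 5 and 4 in every fit, with a median of 0.01. The ligand BMP4 rose by 2.15, while ID3 (-1.22) and the feedback genes SMAD6 (-1.51) and SMAD7 (-1.40) fell. ID1 did not pass.

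Detoxifying genes of the NRF2 list, high in A549 as a rule, did not move together: 7 of 32 rose and 1 fell, 5 and 0 in every fit, and the regulator NFE2L2 (0.03) and the targets NQO1 (0.47), GCLM (-0.30) and TXNRD1 (-0.36) did not pass. AKR1B10, an aldo-keto reductase, rose from 392 and 539 to 1804 and 1830.1 TPM (1.98 ± 0.22), and EPHX1, an epoxide hydrolase, by 1.43. The receptor AHR rose by 1.62 and CYP3A5, a drug-metabolising cytochrome, from 1.4 and 1.83 to 17.7 and 15.3 TPM (2.74 ± 0.21), while AHR's standard target CYP1A1 (-0.15) did not pass. UGT1A6, a glucuronosyltransferase, rose by 2.24, with the limit that the UGT1A genes share exons and their values are uncertain.

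**Figure D5:**
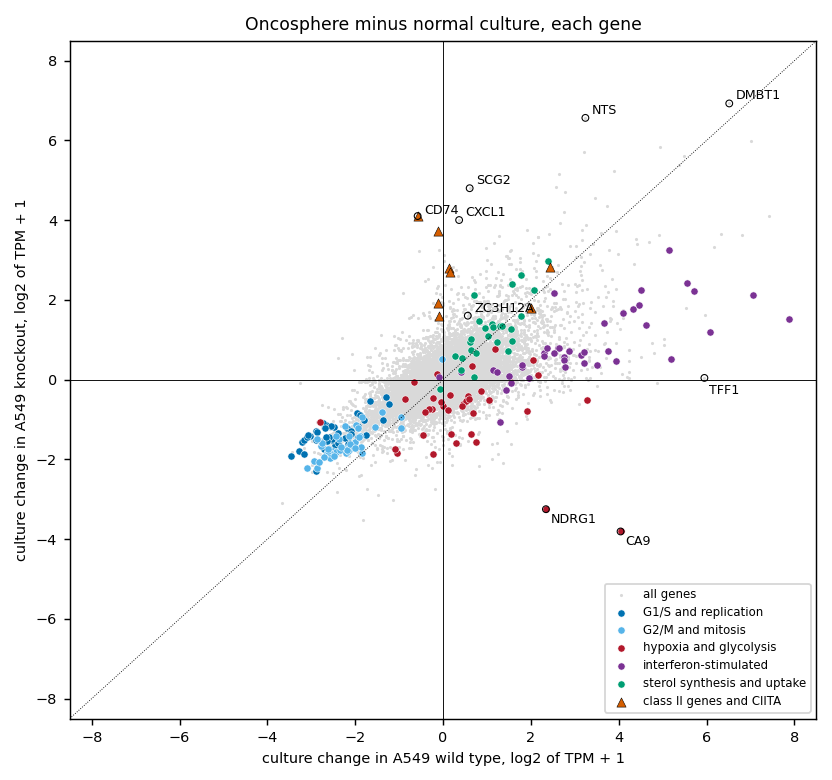
Culture change of each gene in A549 labelled knockout (y axis) against that in A549 wild type (x axis), both on the log2(TPM + 1) scale, with 6 groups of genes coloured and the line of equal change dotted. Cell cycle genes lie at lower left in both, interferon-stimulated genes far to the right at small knockout changes, and CA9 and NDRG1 at lower right. Class II genes lie high at small wild-type changes, except HLA-DMA and HLA-DMB, which rose in wild type too (2.43 and 1.99).

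Set beside wild type, the knockout response was largely of the same sign and called fewer genes. Wild type had 7392 called genes (40.6%) against 3784. Of the genes called in the knockout, 1262 were higher in both and 1422 lower in both; 34 were higher in knockout and lower in wild type and 28 the reverse; 689 rises and 349 falls were called in the knockout and not in wild type, which does not show a difference. Across 14456 genes of at least 1 TPM on average the 2 changes correlated at r = 0.679, over genes that share libraries and are not independent. By the test of the difference itself, 1212 genes (6.65%) changed differently, 642 with a more positive change in the knockout (3.52%) and 570 with a more negative one (3.13%). Centring the differences on their median over genes of at least 1 TPM on average turned that split to 36.85% higher from 52.97%. The balance of directions therefore depends on the centring. With 1 A549 library left out the count ranged from 137 to 971, and 97 of the 1212, 25 higher and 72 lower, were called in all 8 such fits.

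The division genes were among those with a smaller fall in the knockout. Of the 46 G1/S genes 22 had a difference called higher and none lower, and of the 33 ribosome biogenesis genes 13 and none, beside 3.52% and 3.13% of all genes; 1 of the 22 and none of the 13 were called in all 8 fits with 1 A549 library left out. MCM2 in wild type fell from 91.0 and 87.6 to 6.21 and 8.25 TPM, a change of -3.47, against -1.91 in the knockout, a difference of 1.55 ± 0.24 (adjusted p = 0.0171; called in 4 of 8 fits with 1 library left out, adjusted p up to 0.0737). Of the 49 mitotic genes 5 differed, all higher.

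Set beside H2023 labelled knockout, 647 genes were called higher in both lines and 1244 lower in both (26.9% of genes were called in H2023), with 65 and 9 opposed, and the changes correlated at r = 0.626 across 14456 genes. The difference between the lines was called in 1315 genes (7.21%), 1008 with a more positive change in A549 (5.53%) and 307 with a more negative one (1.68%). Without mitochondrially encoded genes, whose share rose more in H2023 (from 10.5% and 12.3% to 23.8% and 24.4% of TPM), the higher count was 552 and the median difference of all genes moved from 0.13 to 0.02. DMBT1 and SERPINA3, which rose in A549, stayed in H2023 oncospheres at 0.32 and 0.19 TPM (DMBT1) and 0.12 and 0.13 TPM (SERPINA3), with differences of 6.78 (adjusted p = 0.00116) and 5.50 (adjusted p = 8.01e-05). CA9, lower in A549 oncospheres, was at 0.49 and 0.26 TPM in H2023 normal culture and 1.04 and 0.35 TPM in its oncospheres, a difference of -4.08 (adjusted p = 0.0237). ALDOC, a glycolytic aldolase, rose in H2023 by 4.42 and was at 5.16 and 8.15 TPM (normal) and 7.93 and 2.16 TPM (oncosphere) in A549, a difference of -4.91 (adjusted p = 0.000835).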

How the data were processed

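Total RNA was prepared with a ReliaPrep kit and sequenced from TruSeq Stranded mRNA libraries, per the labels' protocols. HISAT2, StringTie and GRCh38 are named in the submitters' processing notes, with no versions. The authors deposited 1 table per line and culture (18361 rows each), in which the per-library values are taken as TPM because they add up to nearly 1000000 per library. Per the file headers, the deposited tables also hold a mean signal (baseMean), a log2 fold change, its error, a test statistic (a score) and p-values under the column names DESeq2 uses. Those compare genotypes within a culture and were used only for 1 alternative of the difference from wild type (1514 genes called). In all 18361 rows the deposited statistic and fold change have opposite signs. Sequencing depth is unknown.

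The tables were joined by Ensembl ID (18227 genes after repeated IDs, which held identical values); 1770 genes had no symbol. Values were set to log2(TPM + 1) and fitted with limma 3.58.1 (R 4.3.3; variance trend, no filter on low values) over the 8 A549 libraries as 4 group means. The H2023 culture effect was fitted the same way over the 8 H2023 libraries, and the difference between the lines over all 16. Benjamini-Hochberg adjustment ran over all genes with a threshold of 0.05. No covariate was used. The fit was tested on simulated data.

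The genes and the 47 lists (1219 genes; 91 further entries not analysed here) were chosen with earlier results of these data known. The genes named are ZC3H12A, the 15 largest rises and falls among called genes with no overlap and at least 5 TPM, up to 8 called members and the most abundant member of each list, and the 8 and 5 most different each way from wild type and from H2023. Other genes named, such as the class II genes beside CD74 and HLA-DRA, RFX5, CA12, WWTR1, TLN1 and list members that did not pass, were chosen after their values were seen. Some genes that meet the rule are not reported here. Gene positions come from GENCODE 29 and promoter windows from RefSeq.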

Additional observations from a re-analysis of the deposited data

Results flagged for a closer look

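The 16 genes below were chosen among genes called by the interaction term of the limma fit, with at least 5 TPM in a group. They are the 8 highest and the 8 lowest by that term, so their passing it was set by the choice. The term tests whether culture effects differ between A549 labelled knockout and A549 wild type (2 libraries in each of 4 groups, Benjamini-Hochberg adjustment over 18227 genes). The values are the knockout change minus the wild-type change on the log2(TPM + 1) scale. More positive in the knockout were CD74 (4.68), SCG2 (4.2), HLA-DRA (3.84), SFRP5 (3.76), CXCL1 (3.64), SAA1 (3.35), OLFML3 (3.18) and SAA2 (3.1). More negative were CA9 (-7.85), IFI27 (-6.35), TFF1 (-5.91), NDRG1 (-5.59), TF (-4.95), IFI6 (-4.93), ISG15 (-4.87) and MX1 (-4.67).

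With 1 of the 8 A549 libraries left out at a time, SCG2, SFRP5, CD74, HLA-DRA, CA9, NDRG1, TFF1 and TF passed in every such fit. The others lost the call in at least 1 of them, with the largest adjusted p at 0.09 for CXCL1, 0.115 for SAA1, 0.0946 for SAA2, 0.0922 for OLFML3, 0.0851 for IFI6, 0.124 for IFI27, 0.0861 for ISG15 and 0.0902 for MX1. CXCL1 went from 17.2 and 9.73 to 392 and 127 TPM in the knockout and from 348 and 427 to 560.0 and 441 TPM in wild type, and its 2 knockout normal libraries were the lowest of the 8 A549 libraries. SCG2, which rose in the knockout from 0.65 and 0.94 to 35.6 and 67.04 TPM, was at 0.32 and 0.18 TPM in wild-type normal culture and 0.97 and 0.83 TPM in wild-type oncospheres. TF, transferrin, was at 0 and 0.14 TPM in knockout normal culture and 0.01 and 0 TPM in knockout oncospheres, and at 0.01 and 0.88 TPM in wild-type normal culture and 38.9 and 39.4 TPM in wild-type oncospheres. IFI27, an interferon-induced mitochondrial protein, reached 1162 and 264 TPM in wild-type oncospheres and 17.95 and 1.07 TPM in knockout ones.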

How the results depend on the processing

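Under 9 other settings (a pseudocount of 0.1 or 5 TPM, a mean of at least 1 TPM, a replicate block, no mitochondrially encoded genes, quantile normalization, median centring, no variance trend, the 4 knockout libraries alone) the knockout called 3124 to 3940 genes, within 1.5 times of 3784, and no named gene reversed; 254 of the 314 named genes that were called kept the call under all 9. Leaving out 1 knockout library gave 2010 (without the first normal library) to 2436 (without the second oncosphere library) called genes, 1109 to 1323 higher and 865 to 1113 lower, and 195 of the 314 were called in all 4 fits; the single library left in a group is assumed to vary like the other groups. Leave-out fits for the wild-type libraries, chosen after seeing the data, gave 3566 to 3755 called, 1895 to 2007 higher and 1671 to 1749 lower. Under the 9 settings, higher genes made up 49.22% (quantile normalization) to 60.45% (no mitochondrially encoded genes) of the knockout calls, against 52.46% in the main fit.

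For the difference from wild type, leaving out 1 library gave 137 (without the second knockout normal library) to 971 (without the second wild-type oncosphere library) called genes, 48 to 390 higher and 89 to 581 lower. For the others named by library the called genes were 208 (first knockout normal), 531 and 266 (first and second knockout oncosphere), 170 (first wild-type normal), 731 (second wild-type normal) and 476 (first wild-type oncosphere). The lower genes were 367 with a pseudocount of 0.1 TPM, and the higher genes 395 with median centring and 385 with no variance trend; the cause was not tested. For the difference from H2023 the higher genes were 552 without mitochondrially encoded genes, 60.9% of calls against 76.7%. Leaving out 1 library there gave 530 (without the first H2023 normal library) to 981 called genes, 384 to 708 higher and 127 to 273 lower.

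Replicate numbers are shared across the groups, but the labels tie them to no batch: deviations of same-numbered libraries correlated at r = 0.103 between the knockout cultures and 0.00023 to 0.131 between the other A549 groups. With the replicate block the called genes were 3940 in the knockout, 1264 for the difference from wild type and 1402 for that from H2023. TPM keeps no depth, so a low or 0 value has no counting interval here.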

Other observations

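Smaller gene groups are given here by their counts in the knockout, to be read beside the 10.9% of all genes that were higher and the 9.87% that were lower. Among 22 genes of the FOXO factors and quiescence 10 rose and 2 fell, 5 and 1 of them in every fit with 1 library left out, and the median was 0.72. TSC22D3, the glucocorticoid-induced leucine zipper, went from 10.1 and 8.58 to 45.96 and 25.8 TPM (1.79 ± 0.24) and FKBP5, a co-chaperone of the glucocorticoid receptor, from 9.01 and 9.29 to 24.5 and 17.6 TPM (1.10 ± 0.19). Both also belong to the 21 clock and glucocorticoid genes, of which 4 rose and 2 fell, 3 and 2 in every fit; DBP, an output factor of the clock, was the larger fall, from 14.8 and 14.3 to 3.26 and 4.25 TPM (-1.71 ± 0.21). Of 22 immune ligands and checkpoints 7 rose and none fell, 3 in every fit: CEACAM1, an inhibitory adhesion molecule, from 0.44 and 0.11 to 13.3 and 16.1 TPM (3.63 ± 0.23), the 4-1BB ligand TNFSF9 by 1.38 and CD47, which restrains phagocytosis, by 0.83. CD274, the PD-L1 ligand, changed by -0.09 and did not pass.

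The immediate early genes held 1 rise and 4 falls among 24, 1 and 1 in every fit. FOS, a subunit of AP-1, was the rise, from 4.15 and 2.71 to 16.3 and 15.2 TPM (1.94 ± 0.20). Of 18 genes of the IGF axis 3 rose and 2 fell, 2 and 0 in every fit, with the insulin receptor adaptor GRB14 up by 1.94 and the IGF carrier IGFBP2 by 1.52. Of 26 lung and endoderm lineage factors 8 rose and 1 fell, 2 of the rises and the fall in every fit (the rises were SOX9, given above, and SOX4, 0.99). Metalloproteinases, plasminogen genes and inhibitors held 7 rises and 1 fall among 26, 4 and 0 in every fit, with ADAMTS14, a procollagen protease, at 2.07 and TIMP1, a metalloproteinase inhibitor, at 1.33. Collagens and other matrix genes held 7 rises and 11 falls among 34 (5 and 3 in every fit), and TGF-beta and BMP genes 8 and 7 among 34 (5 and 4). Aldehyde dehydrogenases held 4 and 1 among 17 (2 and 0), and xenobiotic genes 9 and 1 among 25 (4 and 0). Heat shock proteins held 2 and 3 among 29 (1 and 0), close to the shares over all genes, and metallothionein genes 1 and 1 among 6 (none in every fit). In the heat shock list HSPA4L, an HSP110 family member, rose from 7.57 and 7.1 to 15.01 and 16.4 TPM. In wild type 16 of the 29 were lower, beside 21.6% of all genes called lower there.

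DEFB1, an epithelial antimicrobial peptide, rose in the knockout from 0.3 and 0 to 13.95 and 19.2 TPM (3.93 ± 0.32). In H2023 labelled knockout it stood at 0.38 and 0.74 TPM in normal culture and was listed at 0 in both oncosphere libraries, and the difference between the lines was 4.56 (adjusted p = 0.000706 by limma).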
